A study of Mus musculus with 5 samples.

Results

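The regions described here are the PABPC1 CLIP-seq peaks and deletion sites that lie on mouse pseudogenes. A peak was taken by its midpoint and a deletion site by its single base, and either counted where it lay inside an exon of a pseudogene on the same strand and in no protein-coding exon. Of 90337 peaks, 1544 did so (1.71%, exact 95% interval 1.63 to 1.80), and of 11907 deletion sites, 141 did so (1.18%, 0.998 to 1.395). They lay on 1094 pseudogenes, of which 1063 held a peak, 84 held a site and 53 held both.

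The study used MEL cells, a mouse erythroleukemia line that resembles early red cell precursors. The data of both assays are labelled day 0. For the 3 CLIP-seq samples, ultraviolet light (400 mJ/cm2) cross-linked proteins to RNA, RNase (10 min) trimmed the RNA in the lysate, and the fragments held by PABPC1 were precipitated with an antibody and sequenced. In 2 further samples of the line the mRNA was sequenced. The replicates of each assay were pooled by the authors into 1 list or 1 value a gene, no untreated or control precipitation was analysed here, and so no value has a replicate error and no test between samples was made; the intervals given are exact binomial intervals that cover counting error only. Abundance of the erythroid genes Gata1 (RPKM 211), Klf1 (428), Nfe2 (69.2), Tal1 (40.3), Tfrc (103) and Alas2 (79.0) stood beside Col1a1 at 0.873, Thy1 at 65.3, Cd79a at 0.350 and Cd3g at 0.212, and Col1a2 and Cd3e were not listed.

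PABPC1 is the main cytoplasmic poly(A) binding protein; it coats the tails of mRNAs and takes part in translation and in the control of mRNA decay. A processed pseudogene is a copy of an mRNA that was reverse transcribed and inserted into the genome, so it has no introns, often ends in a remnant of the tail, and joins in 1 stretch the sequences that sit in separate exons of its parent gene. Short and strongly expressed housekeeping mRNAs, above all those of ribosomal proteins and of Gapdh, have left many such copies. An unprocessed pseudogene arises instead by duplication of the gene and keeps its exons and introns.

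Of the 1094 pseudogenes, 990 were annotated as processed, 53 as transcribed processed, 25 as unprocessed, 17 as transcribed unprocessed, 5 as polymorphic, 3 as pseudogene without a kind and 1 as transcribed unitary. Each was aligned to the spliced transcripts of protein-coding genes and the best match was taken as its parent, which succeeded for 1087, with ties for 38. Identity to the parent had a median of 94.6% with quartiles of 89.8% and 98.0%, and 37 were identical over their whole transcript. The parents numbered 672, of which 534 had 1 such pseudogene and 27 had 5 or more.

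Sites of 8 pseudogenes with the most deletions at a base are shown first, because reverse transcriptase leaves deletions at or near the cross-linked nucleotide and so narrows a contact down to few bases. The eighth, Gm10275, shares its count of 39 deletions with Gm12749, which is described in the text and not printed. Each line reads 5′ to 3′ along the spliced transcript of GENCODE M21 (mm10), with up to 12 bases on either side, and the base called as deleted is in capitals. Adjoining bases often share the deletions, since 82 of the 141 sites lay 1 nt from another and joining sites within 10 nt left 91 runs; on Gm6977 and Gm6293 the base before the capital had the same count and is not marked. The parent is printed where its aligned bases differ.
Gm6440, copy of Rps20: atggcaTttaaagataccg
Gm6977, copy of Fth1: cctgcaggatatAaagaaaccagac
AC148174.2, copy of Cox6a1: gatggcttaaatAaataacttaaac
Cox6a1: gatgccttaaatAaataacttaaac
Gm9794, copy of Rpl23: tcatagtaaacaAtaaaggagagat
Gm6293, copy of Uqcr10: gtggaaacatatAaagttcttgtat
Uqcr10: gtggaaacatatAaagcacaagtat
Gm15131, copy of Rpl13: actttaaggcttTgccagtctccga
Rpl13: actttaaggctttTgccagtctccga
Gm15289, copy of Etfa: gttgcagatttaTttaaggtggttc
Gm10275, copy of Rpl12: agcaacaagaaaAtattccaataaa
In 5 of these 8 windows the pseudogene and its parent had the same bases throughout. Gm15131 lacked 1 base of a run of T in Rpl13, Gm6293 differed from Uqcr10 at 4 bases, and AC148174.2 differed from Cox6a1 at 1.

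The base with the most deletions in the whole series lay on Gm6440, a processed copy of Rps20, a protein of the small ribosomal subunit, at chromosome 16, position 17137334, plus strand. There 2205 of 5822 tags (37.9%) carried the deletion, while the next highest count anywhere was 836 deletions. The base is the 7th of the pseudogene, and it aligned with the coding sequence of Rps20, 3 nt from an exon junction. Rps20 itself had 40 deletions within 3 nt of the aligned base, under a peak of 148 tags. Gm6440 was not listed in the RPKM table, and no listed peak covered the site; whether so recently numbered a gene was searched for peaks is not stated in the labels or headers.

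Gm6977, a copy of the ferritin heavy chain gene Fth1, followed with 68 of 176 tags deleted (38.6%) at chromosome X, position 90744804, minus strand. The base lay 3 nt from a junction of the Fth1 transcript, inside a peak of 177 tags. AC148174.2, a transcribed copy of the cytochrome c oxidase subunit gene Cox6a1 on chromosome 19, had 51 of 748 tags deleted (6.82%) at position 3206244, 14 nt from its end, aligned with the Cox6a1 3′ UTR. Gm9794, a copy of Rpl23 on chromosome 6, had 51 of 447 (11.4%), and Gm6293, a copy of the complex III subunit gene Uqcr10 on chromosome 19, had 46 of 217 (21.2%). Gm15131 on chromosome X had 43 of 125 (34.4%), Gm15289, a copy of the electron transfer flavoprotein gene Etfa on chromosome 13, had 41 of 208 (19.7%), and Gm10275 on chromosome 10 had 39 of 177 (22.0%). The 8 bases marked were A or T, while that of Gm12749, with 39 of 85 tags deleted (45.9%), was G.

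Over all 141 sites, deletions ranged from 3 to 2205 with a median of 11, and coverage from 3 to 5822 tags with a median of 60. The deleted base was A at 60 sites (42.6%), T at 58 (41.1%), C at 12 (8.51%) and G at 11 (7.80%). The transcripts of the same pseudogenes held 28.1% A, 23.1% T, 22.9% C and 25.9% G. Sites in protein-coding exons were more one-sided, with 45.1% at A, 48.3% at T, 3.27% at C and 3.39% at G.

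Motifs that mark poly(A) signals or A-rich sequence were counted within 20 nt of the site on the transcript strand. AATAAA, the canonical poly(A) signal, lay near 18 sites (12.8%, 7.74 to 19.4) and near 1.87% of all positions in the same transcripts. ATATAA lay near 16 sites (11.3%, 6.63 to 17.8) against 0.979% of positions. AAAAAA lay near 5 sites (3.55%, 1.16 to 8.08) against 2.10% of positions, an interval that takes in the value for all positions. The intervals take each site as independent, although most adjoin another: with 1 site for each run, AATAAA and ATATAA each lay near 8.79%. In protein-coding exons AATAAA lay near 31.2% of sites, ATATAA near 13.1% and AAAAAA near 11.9%. The windows of Gm6977 and Gm6293 printed above hold ATATAA, and those of AC148174.2, Gm9794 and Gm10275 hold AATAAA.

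Along the pseudogene, 52 of 141 sites (36.9%, 28.9 to 45.4) lay within 100 nt of the annotated 3′ end, where 19.6% of all positions lie. For peak midpoints it was 421 of 1544 (27.3%, 25.1 to 29.6), where 16.1% of positions lie. Against the parent mRNA, 112 of 130 aligned sites (86.2%) fell in coding sequence and 17 (13.1%, 7.81 to 20.1) in the 3′ UTR, which made up 6.29% of the aligned bases. These 17 include 5 close together on AC148174.2 and 4 on Gm10275. The intervals for sites take each as independent and so are too narrow, and shares by run were not taken here. Peaks lay in coding sequence in 1425 of 1467 cases (97.1%) and in the 3′ UTR in 40 (2.73%), and coding sequence made up 97.9% of the aligned bases of their pseudogenes.

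**Figure D1:**
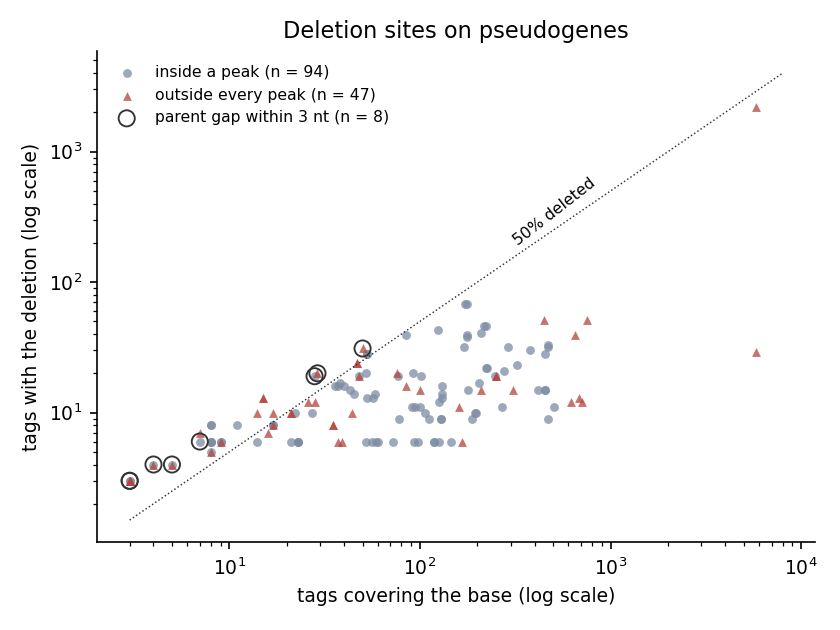
Each point is 1 of the 141 deletion sites on pseudogenes, with the tags covering the base on the x axis and the tags carrying the deletion on the y axis, both on log scales; circles lie inside a peak (94), triangles outside every peak (47), rings mark the 8 sites with a gap in the parent within 3 nt, and the dotted line is 50% deleted. The point at 2205 deletions is Gm6440, and the ringed sites all lie above the dotted line.

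In 35 of the 141 sites (24.8%, 17.9 to 32.8), spread over 23 pseudogenes, at least 50% of the tags carried the deletion. In protein-coding exons it was 602 of 9723 sites (6.19%). Coverage differed too, with a median of 60 tags on pseudogenes and 148 in protein-coding exons, so the sites were compared within coverage classes. At fewer than 30 tags, 30 of 45 pseudogene sites (66.7%, 51.0 to 80.0) and 49.2% of 970 coding sites were deleted in at least 50%. From 30 to 99 tags it was 5 of 37 (13.5%, 4.54 to 28.8) and 3.49% of 2551. At 100 tags or more it was 0 of 59, which allows up to 6.06%, and 0.580% of 6202, and the medians were 7.57% and 6.92% deleted. The class under 30 tags reaches down to sites of 3 tags, such as those of Gm4165, with all 3 deleted. Coverage was not matched within a class, so whether the shares differ at equal coverage was not tested. The intervals take adjoining sites as independent.

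Some of these heavily deleted bases have no counterpart in the parent. Of 130 aligned sites, 8 (6.15%, 2.69 to 11.8), in 6 pseudogenes, lay within 3 nt of a gap in the parent, where 1.24% of all aligned bases do. Those 8, at a coverage of 3 to 50 tags, were deleted in 62.0% to 100% of tags, with a median of 82.9%, against a median of 18.8% over the other 122. Coverage differed between these, as 7 of the 8 had fewer than 30 tags. Under 30 tags the medians were 85.7% over those 7 and 62.5% over the 29 aligned sites without a gap. Coverage was not matched within that class. Sites without a gap also reached 100% there, as on Gm8277 (7 of 7 tags) and Gm4928 (4 of 4). Whether sites at a gap are more deleted at equal coverage was not tested. The sequences of the 4 pseudogenes with 1 extra base are given with their parents, with the called base in capitals, and were chosen after their values were seen. The other 2, Gm15833 and Gm18284, have gaps of 4 and 2 bases in the parent and are not printed.
Txn-ps1: ttataaaaagggGtcaaaaggtgag
Txn1: ttataaaaaggGtcaaaaggtggg
AC118472.1: atctggtctacaTtgataaaaatgg
Vrk1: atctggtctacatgataaaaatgg
Gm13142: cctcacatacagTttggtgtatgaa
Ppp2r5a: cctcacatacagttggtgtatgaa
Gm15495: actattcaagatCtacaggttgtac
Cct4: actattcaagattacaggttgtac
Txn-ps1, a copy of the thioredoxin gene Txn1, had 31 of 50 tags deleted (62.0%) within a run of G that is longer than that of its parent. AC118472.1, a copy of the kinase gene Vrk1, had 20 of 29 (69.0%) and Gm13142, a copy of the phosphatase subunit gene Ppp2r5a, had 19 of 28 (67.9%). Gm15495, a copy of the chaperonin subunit gene Cct4, had 6 of 7 (85.7%). With the base taken out, each of the 4 windows printed has the parent's bases at that place. Whether they came from the parent's mRNA was not tested.

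The lists of peaks and sites were related differently to the annotation. Inside a peak lay 94 of the 141 sites (66.7%, 58.2 to 74.4), against 97.0% of sites in protein-coding exons. Of the 47 outside every peak, 46 lay on pseudogenes whose Ensembl gene number is above that of every gene in the RPKM table, and 1 of the 94 inside a peak did. Without those pseudogenes, 93 of 94 sites (98.9%, lower bound 94.2) lay inside a peak. Such late numbers belong to 7599 of the 13523 annotated pseudogenes; 1.21% of the 7599 held a peak and 0.408% a site, against 16.4% and 0.895% of the other 5924. The 18 sites outside peaks with coverage of at least 50 tags include those of Gm6440, AC148174.2 and Gm9794, and those of Gm28437, a copy of the mitochondrial gene mt-Co3 with 19 of 251 tags deleted at each of 2 adjoining bases.

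Peak height, the authors' score read as the largest number of tags over a base, had a median of 10 tags on pseudogenes, with quartiles of 5 and 25 and a highest value of 1353. Over all peaks the median was 9 and the highest value 10814, and pseudogenes held 1.28% of the summed height. Pseudogene peaks were narrower, with a median width of 48 nt against 74 nt in protein-coding exons. A single pseudogene held at most 12 peaks, and 274 held more than 1.

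The tallest peak, of 1353 tags, lay over the end of Gm14513 (chrX:11684002-11684124, minus strand), a short copy of Rps3, a protein of the small ribosomal subunit; its RPKM was 621, and Rps3 had RPKM 796 and a summed height of 1887 tags. Rps19-ps6 on chromosome 12 followed with 733 tags, against 488 summed over its parent Rps19. Gm5963 on chromosome 16, a copy of Rps21, had 552 tags, and Gm4799 on chromosome 10, a copy of the transcription factor subunit gene Taf10, had 508, against 966 and 1061 for the parents. Rps16-ps2 on chromosome 5 had a tallest peak of 470 tags and 4 deletion sites, and Rps13-ps2 on chromosome 7 had 453 tags and 3 sites. Both were identical to their parents over the whole transcript. The summed height was 624 on Rps16-ps2 against 256 on Rps16, and 453 on Rps13-ps2 against 15 on Rps13.
Gm11478, a copy of Rpl13a, had a tallest peak of 418 tags, Gm6969, a copy of the respiratory gene Cox7a2l, 414, and Gm9843, a copy of Fau, which encodes a fused precursor of a small-subunit protein, 380. Gm12848, a copy of the elongation factor gene Eef1d, stood apart with a peak of 415 tags and an RPKM of 0.0337, which is worth 1 read.

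Peaks were then counted against mRNA abundance. Among genes with RPKM of at least 1, a peak lay on 521 of 1126 pseudogenes (46.3%, 43.3 to 49.2), on 96.6% of 10211 protein-coding genes and on 87.0% of all 12331 genes. A deletion site lay on 42 pseudogenes (3.73%), on 37.0% of protein-coding genes and on 31.4% of all. By abundance class, 100 of 352 pseudogenes (28.4%, 23.8 to 33.4) held a peak at RPKM 1 to 5, 43.9% of 253 at 5 to 20, 52.4% of 250 at 20 to 100, and 179 of 271 (66.1%, 60.1 to 71.7) at 100 or more. In protein-coding genes the same classes gave 83.9%, 98.2%, 99.7% and 99.9%. With peaks of at least 10 tags alone, 30.99% of the 1126 pseudogenes held one.

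**Figure D2:**
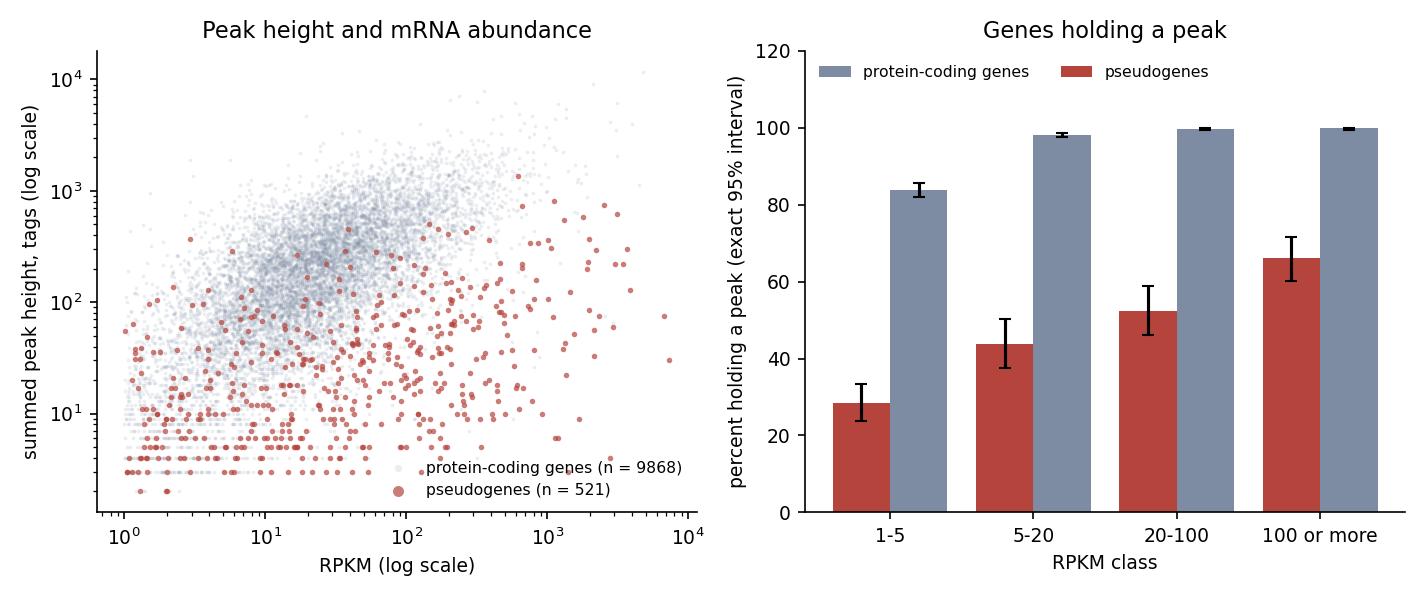
Left, summed peak height in tags against RPKM, both on log scales, for the 521 pseudogenes and 9868 protein-coding genes with RPKM of at least 1 and a peak. Right, the percent of genes holding a peak in each RPKM class, with exact 95% binomial intervals as error bars; pseudogenes run from 28.4% to 66.1% and protein-coding genes from 83.9% to 99.9%.

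Summed height was then divided by abundance. The median of log2((summed height + 1)/(RPKM + 1)) was -0.69 over 521 pseudogenes (95% interval of the median -0.93 to -0.35) and 2.84 over 9868 protein-coding genes (2.81 to 2.87). This ratio depended on the genes taken: at RPKM of at least 10 the pseudogene median was -1.56, with genes lacking a peak kept at 0 it was -1.98, and with no RPKM minimum it was 0.74. Height and RPKM were related with Spearman's rho of 0.449 and Pearson's r of log2 values of 0.462 over the 521 pseudogenes, and with 0.660 and 0.671 over the 9868 coding genes, a description across genes that share the same pooled lists. RPKM is scaled by length, whereas summed height grows with it.

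Pseudogenes took 21.9% of the summed RPKM, and processed kinds alone 21.5%. As reads recovered from RPKM and exon length the share was 4.62%, since pseudogenes are short. The most abundant with a peak was Gm14303, a copy of Rps29, at RPKM 7348 with 1 peak of 30 tags, while Rps29 itself was at 18.8 with 35 tags. Gm4149, a copy of Rpl37a, had RPKM 6711 and 76 tags, and Gm5805, a copy of Rps14, RPKM 3899 and 128 tags. Rpl10a-ps1 had RPKM 3713 and 299 tags and was identical to Rpl10a, which had RPKM 90.9 and 26 tags. Rpl37rt stood at RPKM 3464 with 221 tags, Rps16-ps2 at 3108, Rpl3-ps1 at 3013 with 220 tags, and Gm14681, a copy of the nucleolar gene Npm1, at 2943 with 60 tags. Rpl3, the parent of Rpl3-ps1, was at RPKM 37.6 and held no peak.

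Among pseudogenes without a peak, the most abundant was Gm8730, a copy of the ribosomal stalk gene Rplp0, at RPKM 2963, and its parent had RPKM 1013 and 1343 tags. Rpl38-ps2 followed at 2785, Gm4617, a copy of the chromatin gene Ptma, at 1733, Rpl39-ps at 1672, Rps6-ps4 at 1415, Rps15a-ps7 at 1385, Rpl34-ps1 at 998 and Gm15772, a copy of Rpl26, at 942. The parent of Rps6-ps4, Rps6, was at RPKM 9.66 and held no peak either. Of the 1063 pseudogenes with a peak, 542 were under RPKM 1 or not listed, with a median summed height of 8 tags and at most 415. Among the 1063, 92 had a gene number above that of every listed gene. Of the 13523 annotated pseudogenes, 2148 were listed and 1126 had RPKM of at least 1, and 46.3% of those 1126 held a peak.

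Pseudogene and parent were then set side by side. Of 480 peak-holding pseudogenes with RPKM of at least 1 and identity of at least 90% over at least 50% of the transcript, 239 (49.8%, 45.2 to 54.4) had a higher RPKM than the parent and 68 (14.2%, 11.2 to 17.6) a larger summed height. With or without a peak, 430 of 1025 pseudogenes under the same limits (41.95%, 38.91 to 45.04) had a higher RPKM than the parent. The 480 are among these 1025, and whether pseudogenes with and without a peak differ in this was not tested. Summed over all the pseudogenes of a parent, RPKM exceeded the parent's in 278 of 672 parents (41.4%) and height in 101 (15.0%). By class of identity, below 90% the median RPKM was 2.90 and the median log2 ratio of height to RPKM 1.55, and at 99% or more they were 57.7 and -1.63. The ratio has RPKM in its denominator, so its order is not separate from that of RPKM. By RPKM class its median over pseudogenes went from 1.75 at 1 to 5 to -2.67 at 100 or more. The share with a peak showed no order by identity, with 38.1% of 84 below 90%, 53.6% of 211 from 90% to 95%, 43.7% of 501 from 95% to 99% and 47.8% of 320 at 99% or more. The part of read placement between near-identical copies in these values was not tested, so the level of any single copy is uncertain.

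Peak positions followed the exon structure of the parent, although a processed pseudogene has no introns. The midpoint of 1018 of 1467 aligned peaks (69.4%, 67.0 to 71.7) lay within 20 nt of a base that aligns with an exon junction of the parent, against 30.3% of all aligned bases of the same pseudogenes. The median distance was 7 nt for peaks and 33 nt for bases, and 58.8% of peaks against 15.2% of bases lay within 9 nt. A junction lay inside 968 of 1287 peaks (75.2%, 72.8 to 77.6), against 36.2% of windows of the same width placed anywhere in the same pseudogenes. Deletion sites gave 91 of 130 (70.0%, 61.3 to 77.7) within 20 nt, against 32.5% of bases. Of the parents' own peaks in coding sequence, 245 of 2365 (10.4%, 9.16 to 11.7) lay within 20 nt of a junction. Of coding bases it was 30.5%, and the median distance of these peaks was 43 nt. The parents' peaks are intervals on the genome, where introns separate the exons, and were placed by a midpoint inside an exon. A peak on a processed copy can be centred on the joined sequence, so the shares are not like measures.

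**Figure D3:**
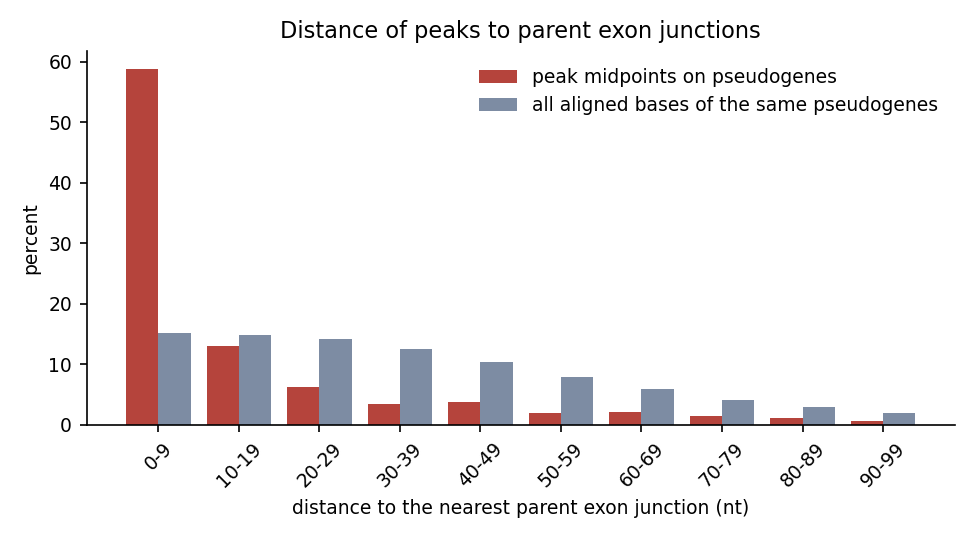
Percent of peak midpoints (red) and of all aligned bases of the same pseudogenes (grey) by distance in nt to the nearest base aligned with a parent exon junction, over 1409 peaks whose parent has a junction. The class of 0 to 9 nt holds 58.8% of peaks and 15.2% of bases, and each class from 10 nt on holds a smaller share of peaks than of bases.

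On pseudogenes with several peaks the positions could be followed peak by peak. Hspa9-ps1 on chromosome X, a copy of the mitochondrial chaperone gene Hspa9 with 92.4% identity and RPKM 40.1, held 12 peaks of 3 to 58 tags (median 9.5). All 12 midpoints lay within 7 nt of a junction, each of a different one, out of 13 Hspa9 junctions that aligned. Gm18913, a copy of the co-chaperone gene Dnajc2 that was not listed in RPKM, held 9 peaks of 4 to 21 tags, all within 8 nt of a junction, each again a different one. Gm5297, a copy of Pa2g4, a growth-regulated RNA-binding protein, held 8 peaks of 5 to 98 tags, of which 7 lay within 10 nt of a junction and the eighth, the tallest, at 22 nt. Gm16580, a copy of Pabpc1 itself, held 4 peaks of 27 to 130 tags at 1 to 19 nt from a junction and 3 deletion sites, with RPKM 1059 against 1143 for Pabpc1, whose summed height was 4385. The Gm16580 site with the most deletions, 23 of 323 tags, lay 1 nt from the end of the copy. It was covered by a taller peak of 350 tags that the midpoint rule did not count.

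**Figure D4:**
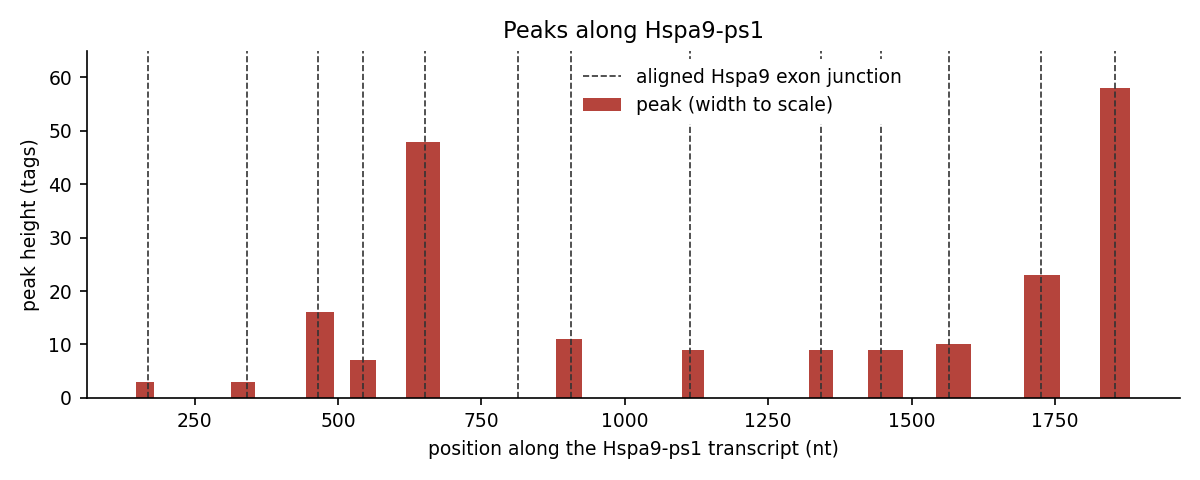
Peaks along the spliced transcript of Hspa9-ps1, with position in nt on the x axis, peak height in tags on the y axis and bar width equal to peak width; dashed lines are the 13 aligned Hspa9 exon junctions. Of the 13 junctions, 12 carry a peak within 7 nt of its midpoint.

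Each height class taken as a whole showed the pattern. It ran from 64.4% of 674 peaks of 2 to 9 tags, against 28.6% of aligned bases, to 79.5% of 83 peaks of 100 tags or more, against 32.4%. Among aligned peaks on pseudogenes with RPKM of at least 1, 668 of 821 (81.4%) lay within 20 nt of a junction, and on those under RPKM 1 or not listed 350 of 646 (54.2%). Ribosomal parents had 126 of the 821 and 244 of the 646. Without them the shares were 600 of 695 (86.3%) and 280 of 402 (69.7%). Shares of bases were not taken for this split. A peak of the parent lay opposite 344 of 1467 peaks (23.4%) and 53 of 130 sites (40.8%), and 13 sites (10.0%) had a parent site within 3 nt. The same shares over all aligned bases were not taken, so whether these counts are high or low was not tested. Differences from the parent were few under the peaks: 400 of 1298 fully aligned peaks (30.8%) had none, 474 (36.5%) had 1 and 424 (32.7%) had 2 or more, with median heights of 13 tags without and 9 tags with a difference. The central 31 nt occurred unchanged in a protein-coding transcript for 587 of 1442 peaks (40.7%), and for 38.5% of all such windows in the same pseudogenes. Whether tags from spliced mRNA of the parent were placed on the pseudogene was not tested.

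**Figure D5:**
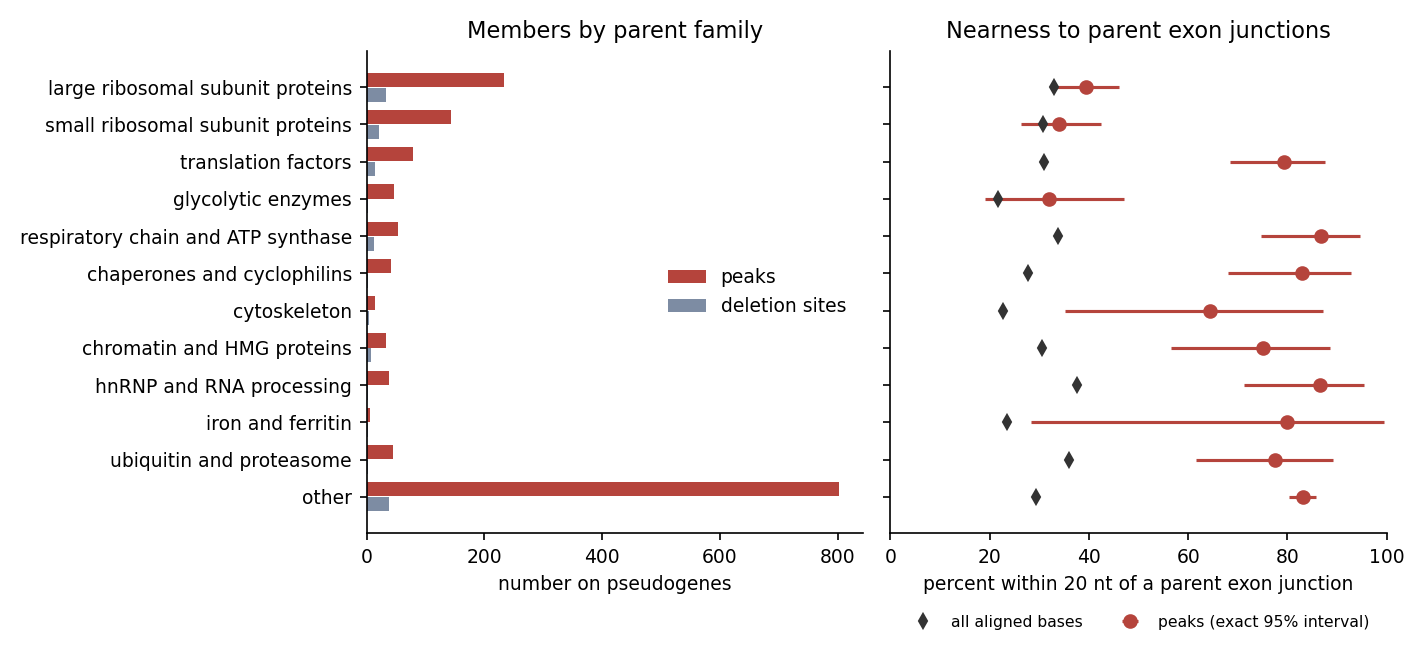
Left, number of peaks (red) and deletion sites (grey) on pseudogenes by the family of the parent gene. Right, percent of aligned peaks within 20 nt of a parent exon junction with exact 95% intervals (red) beside the percent of all aligned bases of the same pseudogenes (black diamonds); ribosomal and glycolytic parents lie between 31.9% and 39.3%, and the other families between 64.3% and 86.8%.

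Ribosomal protein genes were the parents of the largest named families. The large subunit accounted for 198 pseudogenes of 45 parents, with 233 peaks (15.1% of 1544) and 33 sites, and the small subunit for 135 pseudogenes of 33 parents, with 144 peaks (9.33%) and 21 sites. Together they held 33.9% of the members' summed height and 53.1% of the RPKM on all listed pseudogenes. Of large-subunit pseudogenes with RPKM of at least 1, 50 of 168 (29.8%) held a peak, and of small-subunit ones 47 of 91 (51.6%). Over all 1126 pseudogenes it was 46.3%. The share was 71.9% of 32 for translation factors, 57.1% of 14 for chaperones and cyclophilins and 55.8% of 43 for respiratory genes. It was 52.4% of 42 for ubiquitin and proteasome, 46.4% of 28 for RNA processing and 38.5% of 13 for glycolysis. The cytoskeleton gave 27.8% of 18, chromatin and HMG proteins 25% of 32, and ferritin 2 of 2. Parents outside the named families gave 49.0% of 633. Within 20 nt of a parent junction lay 90 of 229 (39.3%, 32.9 to 46.0) against 32.9% of bases for the large and 48 of 141 (34.0%, 26.3 to 42.5) against 30.8% for the small subunit. All 370 aligned ribosomal peaks gave 37.3%, with 68 of 126 (54.0%, 44.9 to 62.9) at RPKM of at least 1 and 70 of 244 (28.7%, 23.1 to 34.8) under RPKM 1 or not listed.

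Rps2 had the most such pseudogenes among ribosomal parents, with 19 that held 260 tags in all against 281 on Rps2. Of 20 copies of Rps6 that were listed in RPKM or held a peak, 14 held a peak; the copies had 110 tags and RPKM 1428 together, against 0 tags and RPKM 9.66 for Rps6. The 13 copies of Rpl21 held 164 tags against 62, and the 9 of Rpl29 held 111 against 4. For Rps7 it was 8 copies, 6 of them with a peak, that took RPKM 2548 against 35.9 and 186 tags against 86. Rpl13 went the other way, with 7 copies that held 151 tags against 1995. By summed height the leading copies were Rpl14-ps1, with 818 tags in 4 peaks, RPKM 1123 and 2 sites, and Gm11478, with 750 tags in 5 peaks, for the large subunit, and Gm14513 and Rps19-ps6 for the small.

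Translation factor genes had 43 pseudogenes with 79 peaks and 14 sites, and 61 of 77 aligned peaks (79.2%) were near a junction. Gm9892, a copy of the initiation factor gene Eif2s2, held 4 peaks summing to 430 tags and 3 sites, and Gm12848 its 415 tags. Of 8 copies of the elongation factor gene Eef1a1, 6 held a peak; the 8 had RPKM 4048 together and 44 tags, against RPKM 4449 and 1124 tags for Eef1a1. One of them, Gm13456, had RPKM 2799 and a single peak of 4 tags.

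Glycolytic enzymes had 45 pseudogenes with 47 peaks and 2 sites, and 15 of 47 peaks (31.9%, 19.1 to 47.1) were near a junction, against 21.6% of bases. Gapdh alone was the parent of 38 of them, the most of any gene. They held 817 tags against 31 for Gapdh, and all 90 Gapdh copies that were listed or held a peak or site had RPKM 157 together, against 7.87. A further 24 pseudogenes, with 26 peaks and 262 tags, matched best to Gm10358, a gene annotated as protein-coding that had no peak and RPKM 0. With symbols of the Gm, Rik and -ps kinds barred as parents, 65 pseudogenes with 70 peaks had Gapdh as parent. The tallest peaks were on Gm5210 (152 tags, not listed in RPKM) and Gm8100 (112 tags, RPKM 0.230, with 1 site of 9 deletions).

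Respiratory chain and ATP synthase genes had 40 pseudogenes with 53 peaks and 13 sites. Their peaks had a median height of 32 tags, and 46 of 53 (86.8%) were near a junction. Gm6969 led with 414 tags, RPKM 198 and an RPKM of 133 for its parent Cox7a2l. Gm6293 held 367 tags at an RPKM of 2.91, where its parent Uqcr10 had RPKM 694, 1358 tags and 10 sites.

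Genes of the ubiquitin and proteasome system had 29 pseudogenes with 45 peaks, led by Gm5801, a copy of the conjugating enzyme gene Ube2j2, with 251 tags and RPKM 91.0. RNA-processing genes had 25 with 38 peaks; Gm8186, identical to the Sm protein gene Snrpg, held 159 tags at RPKM 839, and Gm15033, a copy of Snrpb, 101 tags at RPKM 0.126. Chromatin and HMG protein genes had 20 with 33 peaks, among them Gm4204, a copy of the histone chaperone gene Nap1l1, with 221 tags in 5 peaks and RPKM 660, and Gm9531, with 143 tags and RPKM 366 against 1233 tags and RPKM 67.6 for Set. The Gm9531 transcript compared was identical to Set, but its 2 deletion sites lay on another Gm9531 transcript, of 638 nt, that was not compared. The 31 nt centred on each of the 2 sites occurred unchanged in a protein-coding transcript. Chaperones and cyclophilins had 18 with 42 peaks and the cytoskeleton 9 with 14. Near-junction shares in these 5 families ran from 64.3% to 86.5%.

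Ferritin had 3 pseudogenes, all copies of Fth1, with 5 peaks of a median height of 104 tags. Gm6977 held 379 tags in 2 peaks at RPKM 132, Fth-ps3 held 118 in 2 peaks and was not listed in RPKM, and Fth-ps2 held 104 in 1 peak at RPKM 1.70. On each of the 3 copies a peak was centred 1 nt from a Fth1 junction. Fth1 itself had RPKM 1865, 1680 tags and 4 sites.

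Parents outside the named families accounted for 522 pseudogenes, 803 peaks (52.0%) and 38 sites, with 624 of 751 aligned peaks (83.1%, 80.2 to 85.7) near a junction against 29.3% of bases. Gm4799 was the tallest among them. Gm12749, a copy of the translation regulator gene Bzw1, had 39 of 85 tags deleted at 1 base (45.9%) and RPKM 8.74.

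Pseudogenes that are not processed copies were described by kind. The 17 transcribed unprocessed ones held 46 peaks and 3 sites, and 3 of 18 aligned peaks (16.7%, 3.58 to 41.4) were near a junction of the parent, against 11.3% of their aligned bases. Unprocessed pseudogenes held 31 peaks, with 12 of 28 (42.9%, 24.5 to 62.8) near a junction against 20.3% of bases. For processed pseudogenes it was 954 of 1340 (71.2%, 68.7 to 73.6) against 31.02% of bases, and for transcribed processed ones 44 of 74 (59.5%, 47.4 to 70.7) against 26.4%. Gm13340 (chr2:22588103-22589647, minus strand), annotated as unprocessed, matched best to the mitochondrial cytochrome oxidase gene mt-Co1. That parent has no exon junction, so the duplication of exons and introns described above does not apply to it. Gm13340 had RPKM 2231 and 3 peaks of 96, 154 and 42 tags. Gm11427, which is related to the Schlafen gene Slfn4, held 290 tags in 5 peaks at RPKM 36.6, and Clec2f, related to the lectin gene Clec2g, 152 tags in 2 peaks at RPKM 207; neither of these parents was listed in RPKM. Gm8995, related to the interferon-inducible GTPase gene Gvin1, held 130 tags in 6 peaks at RPKM 7.93. Atp10d, which is annotated as polymorphic because it is broken in some mouse strains, held 7 peaks with 70 tags at RPKM 6.67.

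A deletion site lay in 56 of 1544 pseudogene peaks (3.63%, 2.75 to 4.68) and in 6.42% of the 75062 peaks in protein-coding exons. By height, the shares were 0.556% against 0.175% for 2 to 9 tags, 1.41% against 1.22% for 10 to 29, 4.90% against 9.71% for 30 to 99, and 33 of 84 (39.3%, 28.8 to 50.5) against 52.1% for 100 tags or more. Of the 76 parents of site-holding pseudogenes, 49 (64.5%, 52.7 to 75.1) held a site themselves, where 37.0% of protein-coding genes with RPKM of at least 1 and 47.5% of those with at least 10 did.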

How the data were processed

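The CLIP-seq lists were deposited by the authors as 1 peak list and 1 list of deletion sites for the 3 samples pooled. The peak score, deposited by the authors without a stated meaning, was read as height in tags. Deletions and covering tags are the authors' counts for each site. The authors' RPKM pools the 2 mRNA-seq samples and lists 18349 genes. The submitters' processing notes name TopHat2 2.0.12, HTSeq 0.6.0, cutadapt 1.4.2, Novoalign 3.02.02 and build mm10; their roles and the thresholds are not given in the sources used here. Identifier versions matched the annotation for 4946 of these genes. Among them, whole reads were recovered from RPKM within 0.01 for 100% of 3560 genes under 200 reads, a step that corresponds to 35251228 reads. The read share of 4.62% also took genes of other versions, for which this was not checked.

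Peaks and sites were placed on GENCODE M21 basic exons by strand, 1-based. Of the RPKM identifiers, 290 were not in the annotation. Parents came from blastn 2.17.0 (word size 15, E-value 1e-05, plus strand), by highest bit score. Families were set by parent symbol. Backgrounds are exact shares over every position of the same pseudogenes. Intervals are Clopper-Pearson at 95%. Scripts were tested on simulated copies with known gaps and parents. The named pseudogenes are the 10 with the tallest peak, the 10 with the most deletions, the 8 most abundant with and without a peak, and 2 in each of the 8 largest families; others were chosen after their values were seen. The members and lists were chosen with earlier results of these data known, and the junction, coverage and gene-number analyses were added after seeing the data. Python 3.11.15, pandas 2.3.3, numpy 2.4.6 and scipy 1.17.1 were used.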

Additional observations from a re-analysis of the deposited data

How the results depend on the processing

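No paired analysis was possible because the replicates were pooled before deposit, and for the same reason no replicate could be left out. Of 56 alternatives to 16 results, 32 stayed within 1.5 times a count or within the counting interval of a share or median.
With peaks of at least 10 tags, 824 peaks lay on pseudogenes and 30.99% of pseudogenes with RPKM of at least 1 held one. With at least 10 deletions, 86 sites remained. The share of pseudogenes with a peak was 55.9% at RPKM of at least 10, 34.4% over every listed pseudogene and 49.5% by any overlap.
The median log2 ratio of height to RPKM turned positive with no RPKM minimum, at 0.74, was -1.56 at RPKM of at least 10, -1.98 with genes lacking a peak kept at 0 and -0.99 by the tallest peak; these settings take other genes or less height by construction. Spearman's rho was 0.374 with genes lacking a peak. Pseudogenes took 21.5% of RPKM with processed kinds alone and 4.62% as reads.
AAAAAA lay within 50 nt of 10.6% of sites, and 27.7% of sites lay within 50 nt of the end. Sites outside every peak fell to 1.06% without the pseudogenes of late gene number.
The junction settings were chosen after seeing the data. Peaks near a junction were 59.1% at 10 nt (bases 16.0%) and 75.6% at 30 nt (bases 43.8%). They were 73.6% for peaks of at least 10 tags, 72.5% at identity of at least 90%, 80.2% without ribosomal parents and 56.3% where the central 31 nt were in no coding transcript. Sites near a junction were 47.7% at 10 nt and 81.5% at 30 nt. The causes of these shifts were not tested. Coverage limits the sites: 45 of 141 had fewer than 30 tags.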
